A study of Mus musculus with 8 samples.

Results

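Small nucleolar RNAs are short nuclear RNAs that guide the chemical modification of other RNAs. They fall into families named after conserved sequence boxes. Box C/D RNAs (gene symbols starting with Snord) guide 2'-O-methylation by fibrillarin, and box H/ACA RNAs (Snora) guide the conversion of uridine to pseudouridine by dyskerin. Their main target is ribosomal RNA, and relatives that reside in the Cajal body (Scarna) guide the modification of spliceosomal RNAs. In mammals most of them are not transcribed on their own: they lie in introns of a host gene and are trimmed out of the intron after splicing, so that one transcription unit yields both the host mRNA and the small RNA.

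The genes described here are those with a symbol starting with Snora, Snord or Scarna and a normalized read count of at least 10 in at least 3 of 8 RNA sequencing libraries of mouse fibro/adipogenic progenitors (FAPs). FAPs are mesenchymal cells of skeletal muscle that can form fibroblasts and adipocytes. The files held 120 genes with such symbols among 37991, and 21 of them met the rule, against 14768 genes in all. Of the 72 C/D genes 10 were members, of the 39 H/ACA genes 11, and of the 9 Cajal body genes 0. Members were selected on their normalized read counts over both groups, so their being above 10 is no result.

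The 5 FAP-ctrl libraries came from wild type muscle and the 3 FAP-no cilia libraries from cells in which a floxed Ift88 allele had been deleted, which removes the primary cilium. Both groups were of mixed background, and the cells were taken from tibialis anterior that had been injured with glycerol 3 days earlier. Neither the Cre driver nor the age of the mice is stated in the sources used. The libraries were stranded, made from total RNA, and sequenced from 1 end with 50-base reads. The recovered gene reads ranged from 15.3 to 43.9 M per library, and the members drew 194 to 784 of them. Ift88 had 457 to 594 normalized reads in the FAP-ctrl libraries and 195 to 322 in those of FAP-no cilia (log2 difference -1.14, limma-trend adjusted p = 0.0895). By Xist and Y-linked genes, FAP-ctrl 1 and 2 and all 3 FAP-no cilia libraries were from males and FAP-ctrl 3 to 5 from females, so genotype could be compared within males only. Mitochondrial genes took 1.81% of the reads of FAP-ctrl 5 and 1.25% of those of FAP-no cilia 3, against 3.10% to 3.85% in the other 6 libraries. FAP markers were present in every library, with a summed value of 727294 to 958595, while summed macrophage markers ranged from 599 to 2527 in FAP-ctrl and from 1331 to 4239 in FAP-no cilia; all 10 of these markers had higher means there. The 3 muscle fibre markers tested were lower, and the summed list ran from 132 to 201 in FAP-ctrl but from 41.6 to 125 in FAP-no cilia. Erythroid markers were lower too, 4 of 4 tested, with sums of 6.38 to 266 and 11.4 to 71.7, and Hbb-bs, a globin gene, was at 1.82 in FAP-ctrl 5 against 99.7 to 188 in the other FAP-ctrl libraries. Endothelial markers were higher for 5 of 7 tested, with sums of 624 to 985 and 710 to 1563, and Pecam1 and Cdh5 were at 324 and 317 in FAP-no cilia 3, above all other libraries. Satellite cell markers summed to 9670 to 18947 in FAP-ctrl and 14244 to 19663 in FAP-no cilia, with 2 of 4 tested lower and 2 higher. None of these markers passed the adjusted limma-trend test, while DESeq2 called 1 FAP marker higher. The part of these cells in the results was not tested. In bulk samples, fewer cells of a type and less RNA per cell cannot be told apart.

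Of the 6 members named by the rule for levels and differences, 5 are printed here because the values that follow turn on them. The sequences are the annotated transcripts of GENCODE M21 (GRCm38), 5′ to 3′. In the C/D genes capitals mark box C, searched as NTGATGA in the first 25 bases, and box D, searched as CTGA in the last 25 bases.
Snord69: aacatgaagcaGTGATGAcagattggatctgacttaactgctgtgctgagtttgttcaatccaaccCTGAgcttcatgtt
Snord19: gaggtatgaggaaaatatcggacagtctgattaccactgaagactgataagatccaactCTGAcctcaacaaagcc
Snord100: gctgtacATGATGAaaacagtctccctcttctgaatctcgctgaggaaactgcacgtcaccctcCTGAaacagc
In the H/ACA genes capitals mark box H, the match to ANANNA nearest to the middle, and box ACA, searched as ACA in the last 10 bases.
Snora28: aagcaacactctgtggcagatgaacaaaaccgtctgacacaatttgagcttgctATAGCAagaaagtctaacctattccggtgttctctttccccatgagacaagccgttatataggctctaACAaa
Snora31: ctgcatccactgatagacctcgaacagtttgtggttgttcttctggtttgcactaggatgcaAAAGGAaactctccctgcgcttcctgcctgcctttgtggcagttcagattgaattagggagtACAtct

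The boxes were found unevenly over the classes. Both box C and box D were found in 6 of the 10 C/D members and in 0 of the 11 H/ACA members; box D was found in 10 of 10 C/D members. Both box H and box ACA were found in 11 of 11 H/ACA members and in 2 of 10 C/D members, Snord100, which holds both pairs, and Snord19, which lacks the pair of its own class. Snord35a, Snord72 and Snord91a held neither pair. In the H/ACA members the ACA stood exactly 3 bases from the 3′ end in 8 of the 11. Only the strand of the gene was searched, and a box C that starts with C also holds the letters of box D. Of 32851 RefSeq promoter windows of 80 bases (GRCm38.p6), 0.0548% held both C and D by the same search, and of those of 132 bases 10.4% held both H and ACA. C/D members were 72 to 93 bases long and H/ACA members 127 to 184, and reads were 50 bases long. Snord19 has no match to the 7 letters of box C in the window.

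All 21 members lay within a gene on the same strand. There were 18 such host genes, of which 14 were protein-coding (16 members) and 4 noncoding (5 members). Ribosomal protein genes were 6 of the hosts and held 7 members. The other hosts included Gnl3, which encodes the nucleolar GTPase nucleostemin, Ncl (the nucleolar protein nucleolin), Eif5 (a translation initiation factor), Eef1b2 (an elongation factor), Tpt1 (translationally controlled tumour protein), Ipo7 (a nuclear import receptor), Tsr1 (a ribosome maturation factor) and Kansl2 (a subunit of a histone acetyltransferase complex). No host held 3 members; Gnl3 (Snord19 and Snord69), Rps12 (Snord100 and Snora33) and the noncoding gene 2410006H16Rik (Snord49a and Snord65) held 2 each. The distance to the next downstream exon of the host was 59 to 821 bases for the 10 C/D members, with a median of 73.5. For the 11 H/ACA members it was 49 to 638 bases, with a median of 112, so the ranges overlapped.

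Levels were low and spread widely. Per kilobase of the annotated gene the C/D member with the highest mean over the 8 libraries was Snord69, with 722 normalized reads, followed by Snord100 with 563 and Snord19 with 419. Among the H/ACA members Snora28 led with 408 per kilobase, followed by Snora31 with 348 and Snora68 with 244. The order differed between the groups: in FAP-ctrl it was the same as over all libraries, while in FAP-no cilia Snora31 (316 per kilobase) was above Snora28 (294), Snora41 (216) above Snora68 (199), and Snord72 (218) above Snord19 (203). The 9 members with at least 10 normalized reads in all 8 libraries were these 6, Snora33, Snora41 and Snora7a. At the edge of the rule, 6 members reached 10 in just 3 libraries: Snord35a, Snord65, Snord91a, Snora16a, Snora24 and Snora34, with means of 6.62 to 10.2, while Snord83b, Snora20 and Snora2b reached it in 2 libraries, with means of 6.14 to 7.25, and stayed out. Snord65 was the single member to reach 10 in FAP-ctrl libraries only, and 0 reached it in FAP-no cilia libraries only. The FAP-ctrl libraries by themselves met the rule for 15 members. Among these, Snord14a, Snord72, Snord87 and Snora23 reached 10 in 2 FAP-no cilia libraries and Snora75 in 1, so they too passed through FAP-ctrl.

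**Figure D1:**
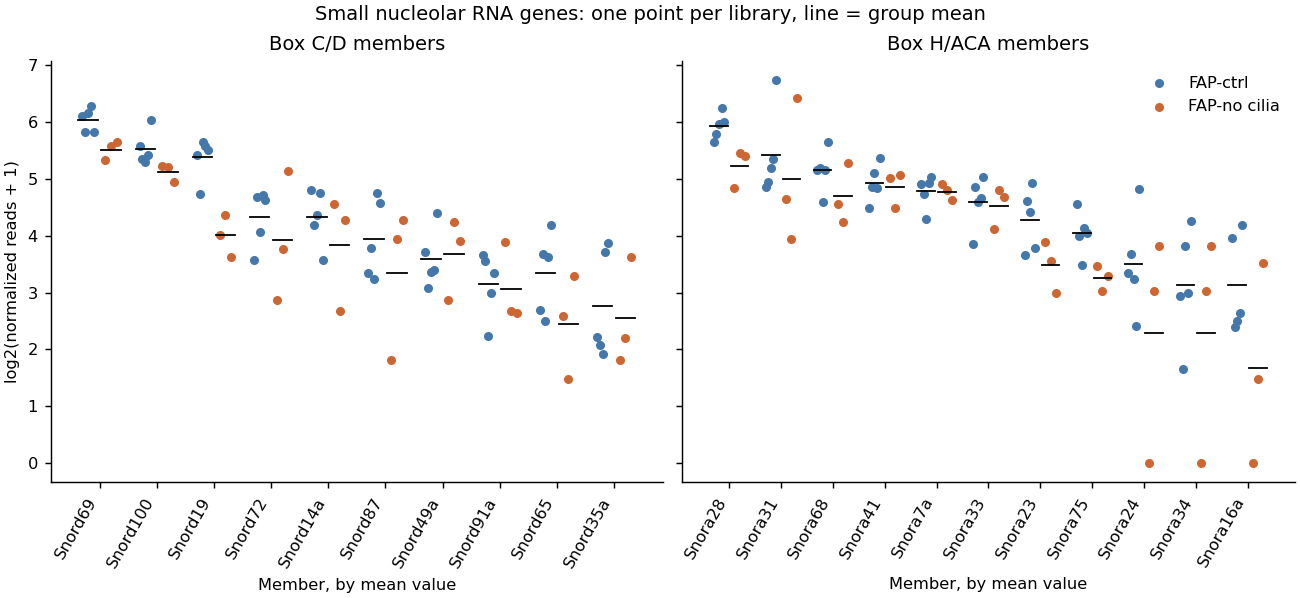
Values of the 21 members as log2(normalized reads + 1), 1 point per library (5 FAP-ctrl in blue, 3 FAP-no cilia in orange), with the group mean of these log values as a line; box C/D members on the left, box H/ACA on the right, ordered by mean value. FAP-no cilia points lie below those of FAP-ctrl without overlap for Snord69, Snord100, Snord19, Snora28 and Snora75, and Snora16a, Snora24 and Snora34 are at 0 in 1 FAP-no cilia library.

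FAP-no cilia libraries had lower mean values than FAP-ctrl for nearly all members, but none passed the all-gene test. On the log2(value + 1) scale 20 of the 21 were lower, 9 of 10 C/D and 11 of 11 H/ACA. The rule can be met by 3 of the 5 FAP-ctrl libraries but needs all 3 of FAP-no cilia. Near 10 it therefore favours genes higher in FAP-ctrl, so this count is not independent of the selection. The 9 members at 10 or above in all 8 libraries were all lower, with a median of -0.42. The median log2 difference of FAP-no cilia minus FAP-ctrl was -0.50 over the members, -0.45 for C/D and -0.70 for H/ACA. DESeq2's fold changes gave -0.38 for C/D and -0.45 for H/ACA, and a pseudocount of 5 gave -0.37 and -0.40, so the gap between the classes depends on the scale. Over all 14768 genes tested 48.5% were lower and the median was 0.0077; among the 3351 of them whose mean lay in the range of the members' means, 66.1% were lower and the median was -0.22. With limma-trend and Benjamini-Hochberg adjustment over all genes 0 members passed at 0.05 (0.00677% of all genes did), and at an unadjusted p under 0.05 4 were lower and 0 higher, against 6.09% and 4.68% of all genes and 12.4% and 2.36% of those in the members' range of means. edgeR called 0 members with TMM or RLE factors (4 lower at an unadjusted p under 0.05 with each, against 5.76% of all genes with TMM) and limma-voom 0 (3), while DESeq2 called 1, Snord19 (3 at an unadjusted p under 0.05), against 1.22% of genes called by it and 0.698% called lower.

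The count and the medians leaned on single libraries. Without FAP-no cilia 1 there were 15 members lower and the H/ACA median was -0.24, and without FAP-no cilia 3 the C/D median was -0.74. In the male libraries alone, 2 FAP-ctrl against 3 FAP-no cilia, 16 of 21 were lower, with a median of -0.46; sex and the other differences between the groups cannot be told apart for the rest. Without FAP-ctrl 5 and FAP-no cilia 3, the libraries of low mitochondrial share, 18 of 21 were lower, with a median of -0.76.

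Snord19 showed the greatest difference among members with a mean of at least 20. It lies in Gnl3 (ENSMUSG00000077797, chr14:31016206-31016281, minus strand, GRCm38). Its normalized read counts were 42.1, 25.7, 49.4, 46.9 and 44.7 in FAP-ctrl 1 to 5 and 15.1, 19.7 and 11.4 in FAP-no cilia 1 to 3. Each FAP-no cilia library was below every FAP-ctrl library, the nearest being FAP-ctrl 2. The means were 41.7 ± 9.35 (SD, n = 5) for FAP-ctrl and 15.4 ± 4.17 (SD, n = 3) for FAP-no cilia, and the log2 difference was -1.38 ± 0.30 (SE, limma-trend adjusted p = 0.181). DESeq2 gave -1.50 with an adjusted p of 0.0185. These values rest on 249 reads in the FAP-ctrl libraries and 36 in those of FAP-no cilia: the exact Poisson interval (95%, counting error only) of FAP-ctrl 2 was 16.5 to 38.3 and that of FAP-no cilia 2 was 9.84 to 35.3, and these intervals overlap. In the males alone the difference was -1.08 (limma-trend adjusted p = 0.662).

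Snord69, the other C/D gene of Gnl3 (chr14:31014287-31014366, minus strand), also had groups that did not overlap. Its values were 68.3, 55.7, 70.8, 77.2 and 55.6 in the FAP-ctrl libraries and 39.1, 46.6 and 49.0 in those of FAP-no cilia. The log2 difference was -0.53 ± 0.20 (SE, limma-trend adjusted p = 0.401), beside -1.38 for Snord19 of the same host. Gnl3 itself, measured over its exons, stood at 3491 to 4491 in the FAP-ctrl libraries and 3451 to 4594 in those of FAP-no cilia, with a log2 difference of 0.02 ± 0.11 (SE). Per 100 normalized reads of Gnl3 there were 1.06 of Snord19 in the FAP-ctrl libraries and 0.385 in those of FAP-no cilia, and 1.66 and 1.12 of Snord69; on the log2 scale all 3 FAP-no cilia libraries were below all 5 FAP-ctrl libraries in both ratios.

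Snord100 (chr10:23785750-23785823, minus strand) lies in Rps12, a gene of the small ribosomal subunit. Its values were 46.9, 39.6, 38.2, 41.7 and 64.7 in the FAP-ctrl libraries and 36.6, 35.8 and 29.8 in those of FAP-no cilia. The groups did not overlap, though FAP-ctrl 3 and FAP-no cilia 1 differed by less than 2 normalized reads. The log2 difference was -0.41 ± 0.24 (SE, limma-trend adjusted p = 0.575). Snora33, the H/ACA gene of the same host, had means of 24.2 ± 6.89 (SD, n = 5) and 22.6 ± 5.50 (SD, n = 3), with an interval of the log2 difference from -0.81 to 0.68 (95%, limma-trend).

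Snora28 (chr12:111540941-111541067, plus strand) lies in Eif5. Its values were 49.4, 54.7, 61.5, 74.6 and 62.9 in the FAP-ctrl libraries and 27.7, 43.0 and 41.2 in those of FAP-no cilia. All FAP-no cilia values were below the lowest FAP-ctrl value. The log2 difference was -0.70 ± 0.23 (SE, limma-trend adjusted p = 0.330), and that of Eif5 was -0.01 ± 0.09 (SE).

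Snora68, a further H/ACA gene, stood at 34.7, 35.4, 23.3, 34.7 and 49.2 in the FAP-ctrl libraries and at 22.7, 17.9 and 37.7 in those of FAP-no cilia, where replicate 3 was above 4 of the 5 FAP-ctrl libraries. The log2 difference was -0.46 ± 0.32 (SE, limma-trend adjusted p = 0.639).

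Snora31 (chr14:75847905-75848034, plus strand), in Tpt1, had its highest values in 1 library of each group. It stood at 28.0, 30.0, 35.4, 39.9 and 106 in the FAP-ctrl libraries and at 24.0, 14.3 and 84.9 in those of FAP-no cilia. The 2 high values belong to FAP-ctrl 5 and FAP-no cilia 3, the libraries of low mitochondrial share. Tpt1 was lowest in FAP-ctrl 5 of its group, at 30071, and lowest in FAP-no cilia 3 of its group, at 34147. The log2 difference of Snora31 was -0.42 ± 0.58 (SE, limma-trend adjusted p = 0.830); it was -1.13 without FAP-no cilia 3 and 0.12 without FAP-no cilia 2.

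**Figure D2:**
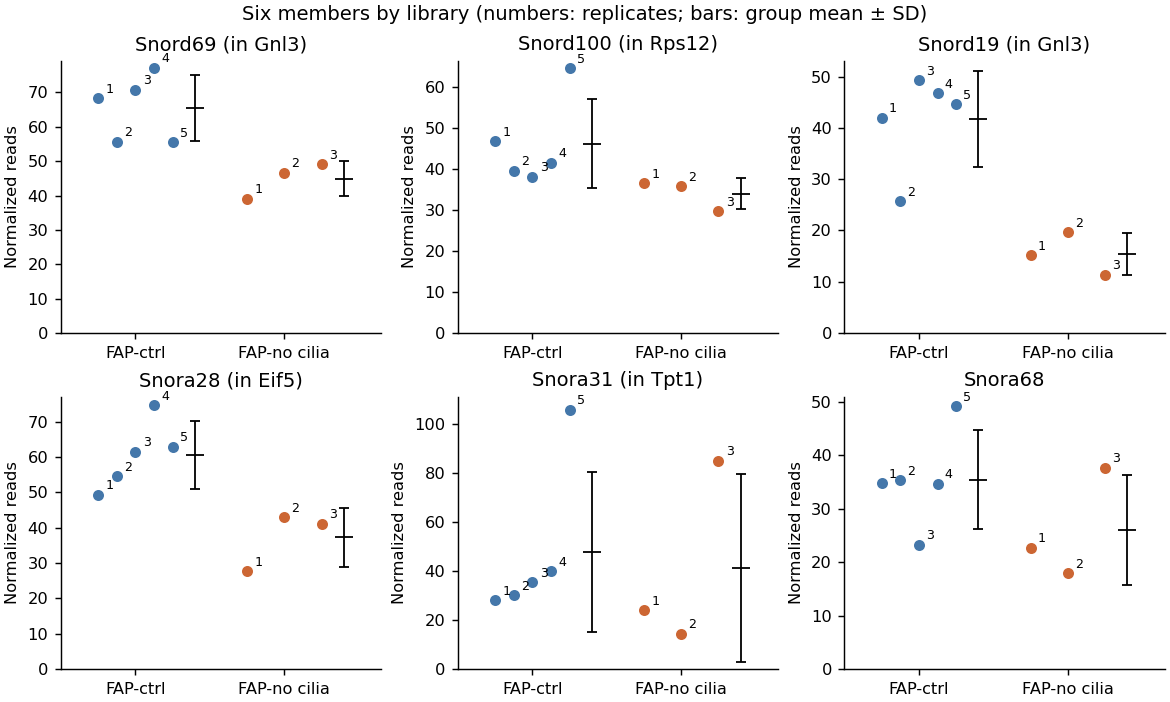
Normalized reads of the 6 members with the highest levels, by library (numbers give the replicate), with the group mean ± SD beside the points; the host gene is in the titles of all but Snora68, and the axes start at 0. Snord69, Snord100, Snord19 and Snora28 show groups that do not overlap, while Snora31 and Snora68 have their highest values in FAP-ctrl 5 and, within FAP-no cilia, in replicate 3.

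Outside these 6, Snora75 in Ncl was a further member whose groups did not overlap; it is named after its values were seen. It reached 10 in 5 FAP-ctrl libraries but in 1 of FAP-no cilia, and so passed the rule through the group where it was higher. It stood at 22.6, 15.0, 10.2, 16.5 and 15.5 in the FAP-ctrl libraries and at 10.1, 7.17 and 8.76 in those of FAP-no cilia, from 4 to 37 reads per library. The log2 difference was -0.78 ± 0.34 (SE, limma-trend adjusted p = 0.454). In all, 5 of the 21 members had FAP-no cilia values below every FAP-ctrl value, and 0 the reverse. With Snora75 among them this count is not independent of the selection. Of the 9 members at 10 or above in all 8 libraries, 4 had such values. Among all genes tested 3.69% had groups that did not overlap with FAP-no cilia lower and 3.62% the reverse, and the shares were 7.94% and 1.49% among the 3351 genes in the members' range of means.

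Several members showed close values in both groups. Snora7a, in the large-subunit gene Rpl32, had means of 27.0 ± 5.17 (SD, n = 5) and 26.5 ± 2.70 (SD, n = 3), with an interval of the log2 difference from -0.60 to 0.58 (95%, limma-trend). Snora41, in Eef1b2, had 30.1 ± 7.06 and 28.5 ± 6.06, with an interval from -0.70 to 0.56. Snord49a was the single member with a higher mean log2 value in FAP-no cilia, at 11.7 ± 4.95 and 12.7 ± 5.91. With intervals of this width these genes are not shown to be unchanged.

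The lowest members were hard to measure. Snora16a, Snora24 and Snora34 had 0 reads in FAP-no cilia 1, which allows up to 3 reads or 3.78 normalized reads there. In the other libraries they reached 1.79 to 27.3. Their log2 differences of -1.47 ± 0.80, -1.21 ± 0.84 and -0.85 ± 0.88 (SE) depend on the added pseudocount of 1. Snora16a lies in Snhg12, a noncoding host of small nucleolar RNAs, which stood at 397 to 512 in the FAP-ctrl libraries and 480 to 609 in those of FAP-no cilia.

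Summed over the 10 C/D members, the value per library was 237, 209, 223, 283 and 283 in the FAP-ctrl libraries and 150, 163 and 201 in those of FAP-no cilia. No FAP-no cilia sum reached the lowest FAP-ctrl sum. The 11 H/ACA members summed to 241, 258, 252, 293 and 413 in the FAP-ctrl libraries and to 175, 185 and 297 in those of FAP-no cilia, where replicate 3 was above 4 of the 5 FAP-ctrl libraries. The means of the C/D sums were 247 ± 34.2 (SD, n = 5) and 171 ± 26.2 (SD, n = 3), a ratio of 0.694, and those of the H/ACA sums 292 ± 70.6 and 219 ± 67.7, a ratio of 0.751. The ratio of the H/ACA to the C/D sum was 1.02 to 1.46 in the FAP-ctrl libraries and 1.13 to 1.48 in those of FAP-no cilia, so the balance of the classes overlapped between the groups.

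The libraries differed in the same sense across many members. FAP-ctrl 5 held the highest FAP-ctrl value of 12 of the 21 members, and FAP-no cilia 3 the highest FAP-no cilia value of 11. For 8 members both were true. Of these, Snora16a, Snora24, Snora34, Snord35a and Snord65 reached 10 in just 3 libraries, FAP-ctrl 5 among them. FAP-no cilia 3 was among them too for all but Snord65. These counts are thus not independent of the rule, and the same share over all genes was not computed. As a log2 deviation from the FAP-ctrl mean of each gene, the median over the members was 0.44 in FAP-ctrl 5 and -0.24 to 0.08 in the other FAP-ctrl libraries. It was -0.72 and -0.48 in FAP-no cilia 1 and 2 but 0.07 in FAP-no cilia 3, within the FAP-ctrl range. FAP-no cilia 3 also had the highest Ift88 value of its group, 322 against 211 and 195 in FAP-no cilia 1 and 2. The parts of the mitochondrial share and of the Ift88 level in these library differences were not tested.

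**Figure D3:**
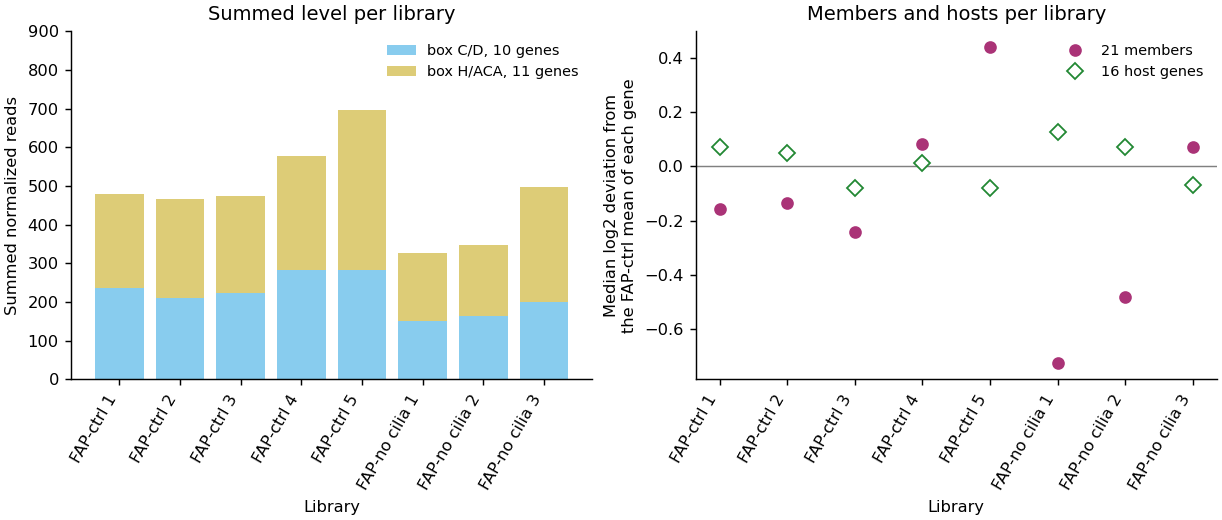
Left, summed normalized reads of the 10 box C/D and 11 box H/ACA members in each library; right, median log2 deviation of the 21 members (circles) and of 16 host genes (diamonds) from the FAP-ctrl mean of each gene. The members' median spans -0.72 (FAP-no cilia 1) to 0.44 (FAP-ctrl 5), while the hosts' median stays between -0.08 and 0.13.

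Host genes lay close in both groups. The 16 hosts in the files, which serve 19 members, had log2 differences of -0.04 to 0.20, with 12 higher and 4 lower in FAP-no cilia, a median of 0.04 and 0 past the threshold by limma-trend, edgeR or DESeq2 (0 at an unadjusted p under 0.05 by limma-trend). Members and hosts also differed in level, and the part of level in the gap between them was not tested. Among the 3351 genes in the members' range of means 66.1% were lower, with a median of -0.22, against 0.0077 over all genes. For 19 of 19 members the log2 difference was below that of the host: member minus host ran from -1.67 to -0.02, with a median of -0.55. That median was -0.86 without FAP-no cilia 3 and -0.32 without FAP-no cilia 2. By class it was -0.39 for C/D and -0.63 for H/ACA, and the H/ACA value was -0.20 with sex as a covariate and in the males alone. As all females were FAP-ctrl, these fits give the same difference by design. The member-to-host ratios of the groups did not overlap, with FAP-no cilia lower, for 3 of them: Snord19, Snord69 and, named after its values were seen, Snora23 in Ipo7. For single genes, not ratios, 3.69% of all those tested and 7.94% of those in the members' range of means had such groups. Snora23 reached 10 in 5 FAP-ctrl and 2 FAP-no cilia libraries, and so passed the rule through FAP-ctrl. A gene on the opposite strand, 1600010M07Rik, overlaps Snora23, and reads of both strands can be told apart only if the counting used strand, which is not stated. Across the 8 libraries the highest value of a host was 1.16 to 1.72 times its lowest; for the 18 members with reads in every library the same ratio was 1.71 to 10.3. Counting error is larger for the members, whose reads are fewer.

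Within a library, the ranks of members and hosts showed at most a weak relation, which was not tested. Across the 19 pairs, per kilobase, Spearman's rho was 0.14 to 0.34 in the FAP-ctrl libraries and 0.19 to 0.43 in FAP-no cilia; genes of a library are not independent replicates, and pairs that share a host share its value. Over all libraries the host was above the member per kilobase by a median of 8.34-fold, from 0.899-fold for Snord69 in Gnl3 to 69.1-fold for Snora7a in Rpl32. Host length was that of all annotated exons together, retained-intron transcripts included, which for Gnl3 came to 6101 bases. Intron bases can thus enter this length, so host values per kilobase and these fold values depend on the annotation. Snord69 had 819 per kilobase in FAP-ctrl, above Gnl3 with 645, but 561 in FAP-no cilia, below Gnl3 with 656. Snord19 stood at 549 and 203 per kilobase, below Gnl3 in both group means. Of the 19 members, 1, 1, 1, 1 and 2 were above their host in FAP-ctrl 1 to 5, and 0, 0 and 1 in FAP-no cilia 1 to 3. A read inside a member can come from the small RNA or from unspliced host RNA of the same strand, and these counts do not separate them.

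**Figure D4:**
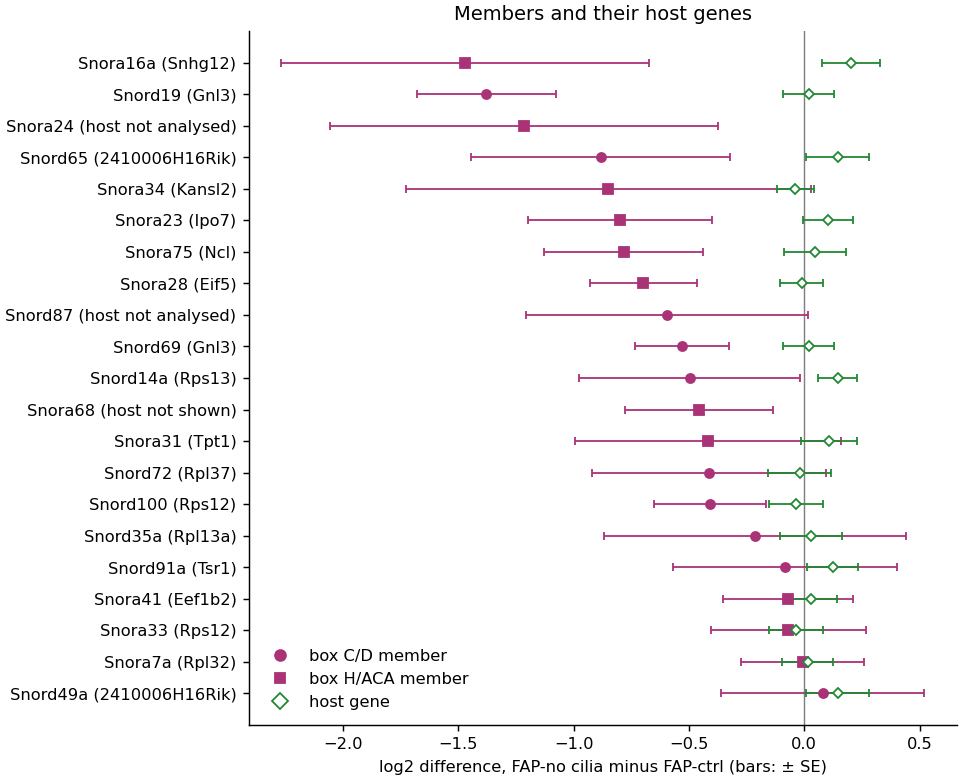
Log2 difference of FAP-no cilia minus FAP-ctrl with its standard error (limma-trend on log2(value + 1)) for each of the 21 members (filled; circles C/D, squares H/ACA) and the host gene (open diamonds) of 18 of them, ordered by the members' difference; hosts are named in brackets. Hosts lie between -0.04 and 0.20, and 20 of the 21 members lie below 0.

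The proteins that carry and assemble these RNAs showed no difference past the threshold. Fbl, the methyltransferase of the C/D particle, had 629 ± 37.6 normalized reads (SD, n = 5) in FAP-ctrl against 636 ± 53.2 (SD, n = 3). Its partners Nop56 and Nop58 had log2 differences of 0.07 ± 0.08 and 0.03 ± 0.11 (SE). Of the 4 C/D core proteins tested and of the 4 H/ACA core proteins tested all had positive differences, with medians of 0.05 and 0.09. Dkc1, the pseudouridine synthase, stood at 2508 ± 189 and 2841 ± 184, a log2 difference of 0.18 ± 0.08 (SE, limma-trend adjusted p = 0.476); Gar1 (0.03), Nhp2 (0.02) and Nop10 (0.16) complete that particle. Coil, the scaffold of the Cajal body, stood at 76.4 to 123 and 98.4 to 123, and Wrap53, which brings RNAs to it, at 103 to 141 and 120 to 150. The 11 assembly factors (8 higher, median 0.08), 8 Cajal body proteins (6 higher, 0.04), 12 processing and decay genes (10 higher, 0.06) and 23 genes of RNA polymerase I and early ribosomal RNA maturation (14 higher, 0.05) also had 0 members past the threshold by limma-trend, edgeR, limma-voom or DESeq2, and 0 at an unadjusted p under 0.05 by limma-trend.

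Few other small structured RNAs were measured. Of 18 found in the files, 2 passed the filter on low values, and both had lower mean log2 values in FAP-no cilia without passing the test. Rnu73b had means of 15.2 and 10.3, a log2 difference of -0.63 ± 0.61 (SE, limma-trend adjusted p = 0.742). Rn7sk, the RNA that restrains a transcription elongation factor, stood at 45.7, 17.1, 22.4, 29.5 and 47.4 in the FAP-ctrl libraries and at 6.31, 41.2 and 56.0 in those of FAP-no cilia, which overlapped (log2 difference -0.26 ± 0.63, SE). Terc, the telomerase RNA with an H/ACA domain, and Rmrp, the RNA of an endonuclease that cleaves ribosomal RNA precursors, had 0 reads over all 8 libraries; in each library a count of 0 allows up to 3 reads.

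Most named genes of the family fell outside the rule. Of the 99 that did, 49 had no read in any library and 50 had between 1 and 62 reads over the 8 libraries. Snord47, Snord78 and Snord80, which lie in the noncoding host Gas5, had 0 reads, while Gas5 itself stood at 4798 to 5244 in the FAP-ctrl libraries and 4344 to 4786 in those of FAP-no cilia (log2 difference -0.14 ± 0.07, SE, limma-trend adjusted p = 0.536). Each of these C/D genes overlaps an exon of a retained-intron transcript of Gas5, so their 0 reads do not show that the RNA is absent. Among the 9 Cajal body genes 7 had reads, from 3 to 29 each. The values of the 50 genes with reads summed to 101 to 162 per library in the FAP-ctrl libraries and 87.0 to 123 in those of FAP-no cilia, with 35 of the 50 lower in the FAP-no cilia mean. Annotation went along with the absence of reads: of the 57 named genes that overlap an annotated exon of a same-strand gene, 35 had no read, against 14 of the 63 that do not. Passing the rule did not go the same way, as members were 10 of the 63 without and 11 of the 57 with such an exon. Such exons belong mostly to retained-intron transcripts among the members, and how the authors' counting treated reads that fit both genes is not stated. Of the 21 members 11 overlap such an exon in GENCODE M21, among them Snord19, Snord69, Snord100, Snora28, Snora68 and Snora75, so their reads are uncertain in their assignment. The 10 members without such overlap had 9 lower, a median of -0.41 and 0 with groups that did not overlap. The 11 with it had 11 lower, a median of -0.53 and 5 with such groups. The shares with FAP-no cilia lower were 3.69% of all genes and 7.94% of those in the members' range of means, so 0 of 10 says little. The 11 also held the 4 members lower at an unadjusted limma-trend p under 0.05 and the 1 called by DESeq2.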

How the data were processed

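The deposited files hold 1 signal value per gene and library: STAR alignment to GRCm38 and DESeq normalization by the authors are recorded in the series design. No source used here gives the counting tool or its strand setting. Dividing by the value of 1 read gave whole reads for 100% of values (within 0.01 reads). The lowest depth was 15.3 M reads.

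The 14768 genes at 10 or above in 3 or more libraries were compared on the log2(value + 1) scale. The test was limma-trend on genotype alone, with Benjamini-Hochberg adjustment at 0.05. Fold changes on this scale average log values, so for low genes they can be smaller or, where 1 library is near 0, larger than those of DESeq2 or of the group means. Alternatives used other pseudocounts, filters and scaling, edgeR, limma-voom and DESeq2 on recovered reads, the replicate number as a block, sex as a covariate and each library left out; the fits were tested on simulated data. Symbols were found for 32938 of 37991 identifiers in GENCODE M21 (GRCm38) and its name table, which gave hosts, lengths and sequences. A host is the same-strand gene, not a small RNA, that contains the member; where several did, one with the member in an intron and then the shortest was taken. Snhg6 and Snhg8, hosts of Snord87 and Snora24, and Snhg1 and Rian were not analysed here. The host of Snora68 enters counts and medians only and is not reported here by itself.

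Members, lists and tests were chosen with earlier results of these data known. Genes named were the 3 of each class with the highest mean per kilobase, up to 6 in each direction with the smallest p and a mean of at least 20 (0 higher), hosts of 3 or more members (0), and fixed genes of the pathway. The labels do not say whether libraries came from separate animals, so p-values measure the spread between these libraries. Software was DESeq2 1.42.0, edgeR 4.0.16 and limma 3.58.1 in R 4.3.3, and scipy 1.17.1, numpy 2.4.6, pandas 2.3.3 and matplotlib 3.10.9 in Python 3.11.15.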

Additional observations from a re-analysis of the deposited data

Results flagged for a closer look

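Snora31 in FAP-ctrl 5 stood far above the other FAP-ctrl libraries, at 106 normalized reads against 28.0 to 39.9. Its gap to the next library was 0.847 of the range of the group, above the critical value of 0.710 for 5 samples. Of 26 quantities examined this was the single one so marked, and chance marks about 1 in 20. FAP-no cilia 3 stood at 84.9.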

How the results depend on the processing

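No member passed the threshold in 20 of the 21 other fits; DESeq2 called 1, Snord19, against 0 by limma-trend. The count of members lower in FAP-no cilia was 15 to 20 with a library left out, and with a mean of at least 50 the filter kept 2 members, both lower. With a library left out the C/D median was -0.74 to -0.36, the H/ACA median -0.78 to -0.24, and the median of member minus host -0.86 to -0.32 for C/D, -0.82 to -0.36 for H/ACA and -0.86 to -0.32 for all members. The H/ACA median of member minus host, -0.63 in the reported fit, was -0.20 with sex as a covariate and -0.20 in the male libraries alone. As all females were FAP-ctrl, these fits give the same difference by design and are not separate checks. The same holds for Snora31 below. Without FAP-ctrl 5 and FAP-no cilia 3, a choice made after seeing the data, as was that of the males, the C/D median was -0.78 and that of member minus host -0.73. Snora31 turned sign with the replicate block (0.0020), with sex as a covariate (0.095), in the male libraries (0.095) and within a range of -1.13 to 0.12 with a library left out; the cause was not tested. With the replicate number as a block, 15 of 21 members were lower, with medians of -0.24 for C/D and -0.52 for H/ACA, and 0 passed. Same-numbered libraries correlated at -0.07, 0.14 and 0.04 in their deviations, and FAP-no cilia 1 and 3 correlated best with another number, so the numbers were not taken to pair libraries. Depth limits the lowest members, where 1 read is worth 0.610 to 1.79 normalized reads.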

Other observations

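Genes annotated as small nucleolar RNAs under other symbols, such as predicted genes, were not members. Of these 32 passed the filter on low values, and 30 had a lower mean log2 value in FAP-no cilia, with a median difference of -0.75. None passed in limma-trend, edgeR or limma-voom, 1 was called lower by DESeq2, and 13 were lower at an unadjusted p under 0.05 in limma-trend, against 6.09% of all genes and 12.4% of those in the range of the members' means. The groups did not overlap for 8 of them, all lower in FAP-no cilia, against 3.69% and 7.94%. Some may be copies of the members, so their reads may not be independent. Genes annotated as miRNAs (4 tested, 4 lower, median -1.10), snRNAs (3 tested, 2 lower) and miscellaneous RNAs (3 tested, 2 lower) were few.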
